A study of Rattus norvegicus with 6 samples.

Results

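Phf7 and Bap1, a pair of neighbouring genes that are transcribed away from each other, were measured in the whole blood of 3 MCAO rats and 3 sham rats. All probe sets whose gene symbol in the array annotation was Phf7 or Bap1 were taken, which gave 3 of 31099 probe sets, 2 for Phf7 (called first and second here) and 1 for Bap1. No other probe set carried either symbol together with a second gene, but whether each probe set reads only its own gene was not checked, since probe sequences were not used here. The genes were chosen by their measured values, since these probe sets were known to be lower in the MCAO group, so that contrast is described here for them and not tested.

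All animals were male Sprague-Dawley rats, 8 weeks old, and each was measured on 1 GeneChip rat genome array of 3′ probe sets. In the MCAO group, the middle cerebral artery was closed with a coated thread, and in the sham group an uncoated thread was inserted instead. Blood was drawn from the heart 24 h after reperfusion in both groups. The MCAO rats of the arrays had been selected from the operated rats by the size of the infarct, which limits how far they stand for all operated rats, and nothing in the labels ties a rat of one group to a rat of the other.

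Bap1 is a deubiquitinase of the ubiquitin C-terminal hydrolase family and the catalytic subunit of the Polycomb repressive deubiquitinase (PR-DUB), in which an Asxl protein activates it. The complex removes ubiquitin from histone H2A, the mark that the ubiquitin ligases of Polycomb repressive complex 1 (PRC1) place. Phf7 is a PHD and RING finger protein that was described in mouse testis as a reader of histone marks and a histone ubiquitin ligase of maturing male germ cells. Mutations that inactivate BAP1 in humans predispose to tumours, and loss of Bap1 in adult mice disturbs blood formation.

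The windows around both annotated start sites are shown because the genes are described together as a head-to-head pair. Both come from the RefSeq promoter table (build GRCr8), whose windows of 300 bases run from upstream of each gene's start to shortly past it, and both genes matched it. The Phf7 window lies at chr16:6452622-6452921 on the minus strand and the Bap1 window at chr16:6452876-6453175 on the plus strand. Each sequence is written 5′ to 3′ on its own strand, and the capitals mark the 46 bases that both windows hold, read on opposite strands.
Phf7: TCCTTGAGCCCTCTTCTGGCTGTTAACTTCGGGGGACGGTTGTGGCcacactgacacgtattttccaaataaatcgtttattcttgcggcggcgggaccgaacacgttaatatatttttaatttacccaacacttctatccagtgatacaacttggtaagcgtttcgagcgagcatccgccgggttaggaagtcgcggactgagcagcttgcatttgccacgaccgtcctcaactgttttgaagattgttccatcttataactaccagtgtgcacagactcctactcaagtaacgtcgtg
Bap1: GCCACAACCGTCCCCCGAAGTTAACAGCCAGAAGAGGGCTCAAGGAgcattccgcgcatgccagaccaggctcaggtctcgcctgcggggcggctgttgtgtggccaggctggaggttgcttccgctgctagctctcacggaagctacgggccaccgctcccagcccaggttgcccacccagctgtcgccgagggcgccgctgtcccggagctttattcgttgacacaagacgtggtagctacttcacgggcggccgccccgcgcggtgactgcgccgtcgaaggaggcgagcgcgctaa
The start sites were 455 bases apart. The Phf7 window held 20 CpG dinucleotides, a number reached by 24.2% of all windows in the table, and had a GC content of 47.7%. The Bap1 window held 30 CpG dinucleotides, a number reached by 10.3% of all windows, and had a GC content of 66.7%. The CpG dinucleotides lay closest together around the Bap1 start.

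**Figure D1:**
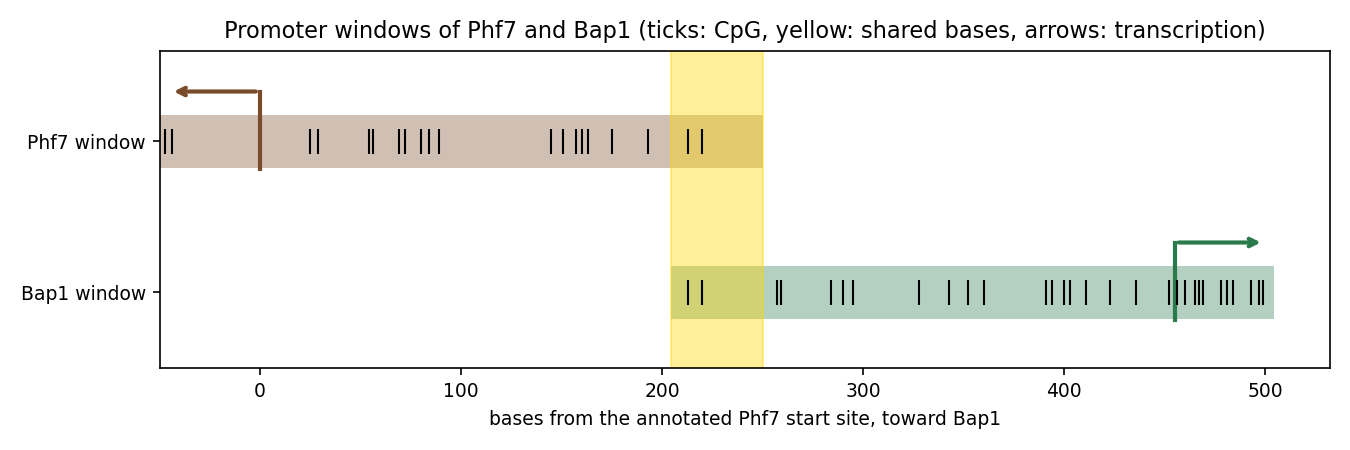
The promoter windows of Phf7 (upper bar) and Bap1 (lower bar) are drawn to scale against the distance in bases from the annotated Phf7 start, with arrows for the direction of transcription. Black ticks are the 20 and 30 CpG dinucleotides of the windows, and the yellow band is the stretch of 46 shared bases.

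Among 6 promoter motifs searched on both strands of 33469 windows, the GC box (GGGCGG, in 33.1% of windows) was found in the Bap1 window and not in that of Phf7. The core of the YY1 motif (CCATNTT, in 18.3%) was found in the Phf7 window and not in that of Bap1. Neither window held the letters of a TATA box (TATAAA, in 14.2%), a CCAAT box (CCAAT, in 37.5%), an ETS core (CCGGAA, in 15.0%) or an E-box (CACGTG, in 6.42%). These matches describe the letters of the windows and not bound sites.

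The deposited values were log2 expression values normalized over the 6 arrays together by the DFW (Distribution Free Weighted) method. DFW contracts differences between arrays very unequally. The range of a probe set over the 6 arrays had a median of 6.55e-06, and 168 of 31042 probe sets, without controls, had a range over 0.01. A log2 difference here belongs to the DFW scale and is no fold change of raw intensity, and the levels of different probe sets are not compared. Hemoglobin beta (Hbb), the defining red cell gene, lay near the top of the scale in both groups, at 14.2, and at least 5 markers each of B cells, T cells, NK cells, neutrophils, monocytes, platelets and red cells were measured. In whole blood, fewer cells of a type and less RNA per cell cannot be told apart.

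The first Phf7 probe set had log2 values of 6.373, 6.325 and 6.359 in MCAO rats 1, 2 and 3, against 6.396, 6.402 and 6.430 in sham rats 1, 2 and 3. No MCAO rat reached the level of any sham rat, and MCAO rat 2 was the lowest and sham rat 3 the highest. The 3 MCAO rats averaged 6.352 ± 0.0248 and the 3 sham rats 6.409 ± 0.0184 (mean ± SD), which gave a log2 difference of -0.0570 with a standard error (SE) of 0.0168 from limma. The gap between the highest MCAO rat and the lowest sham rat was 0.0227, less than the range within the MCAO group (0.0481) and within the sham group (0.0347). The 9 differences between an MCAO rat and a sham rat ran from -0.105 to -0.0227.

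The second Phf7 probe set had log2 values of 5.743, 5.721 and 5.735 in MCAO rats 1, 2 and 3, against 5.749, 5.754 and 5.763 in sham rats 1, 2 and 3. The groups again did not overlap, and the same rats were at the ends. The 3 MCAO rats averaged 5.733 ± 0.0113 and the 3 sham rats 5.756 ± 0.00723 (mean ± SD), which gave a log2 difference of -0.0226 (SE 0.00727). The gap between the groups was only 0.00619, against a range of 0.0222 within the MCAO group and 0.0142 within the sham group.

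Bap1 had log2 values of 6.846, 6.827 and 6.845 in MCAO rats 1, 2 and 3, against 6.860, 6.854 and 6.878 in sham rats 1, 2 and 3. MCAO rats 1 and 3 lay close together, MCAO rat 2 lay below them and sham rat 3 above all others. The 3 MCAO rats averaged 6.839 ± 0.0105 and the 3 sham rats 6.864 ± 0.0127 (mean ± SD), which gave a log2 difference of -0.0251 (SE 0.00897). The gap between the groups was 0.00860, against a range of 0.0186 within the MCAO group and 0.0243 within the sham group.

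**Figure D2:**
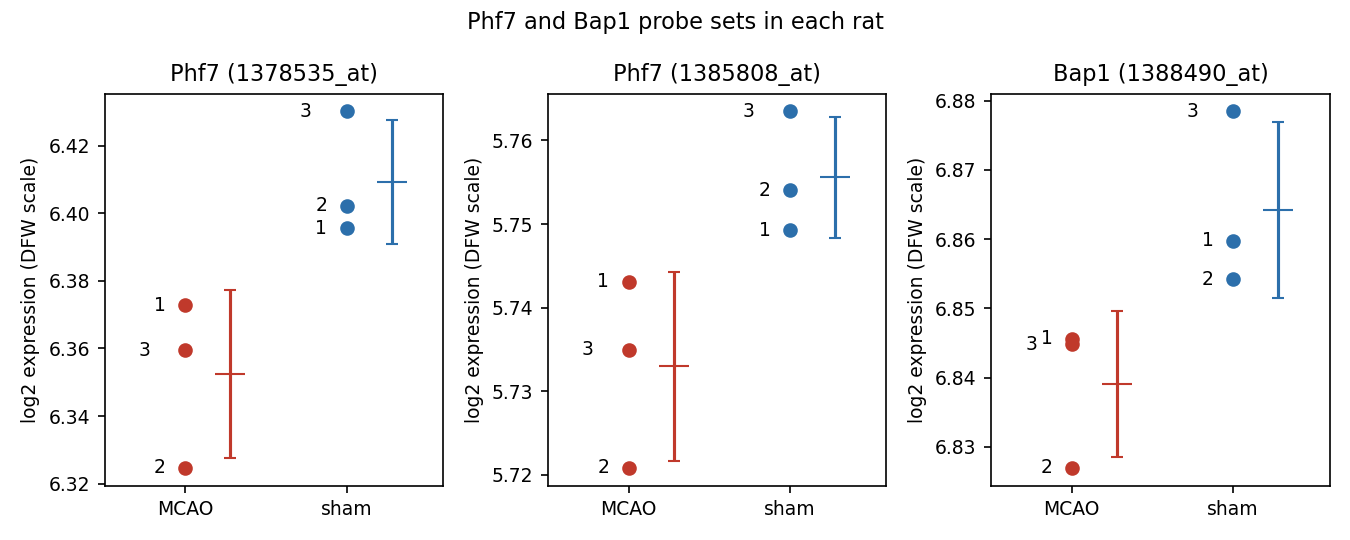
Log2 expression (DFW scale) of each Phf7 and Bap1 probe set in the MCAO group (left in each panel) and the sham group, with 1 point per rat labelled by its number and the mean ± SD beside the points (n = 3 each). Each panel, titled with its probe set, has its own axis, which does not start at 0. In all 3 panels the MCAO rats lie below the sham rats, MCAO rat 2 is the lowest and sham rat 3 the highest.

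These differences were small on the log2 scale but large beside those of other probe sets. The first Phf7 probe set had the second most negative log2 difference of 31042 probe sets, Bap1 was in place 8 and the second Phf7 probe set in place 9. Their ranges over the 6 arrays were 0.105, 0.0515 and 0.0426, in places 12, 32 and 39 of all probe sets from the widest. Of 2668 probe sets within 0.25 of the mean level of the first Phf7 probe set, whose ranges had a median of 3.10e-05, only 2 had at least its range. The same was true of 8 of 12144 probe sets near the second Phf7 probe set (median range 7.86e-06) and of 6 of 845 near Bap1 (median range 0.000159). These ranges include the difference between the groups by which the genes were chosen.

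Rank Products, which ranks the 9 differences of each MCAO rat from each sham rat, called all 3 probe sets lower in the MCAO group at a false discovery rate (FDR) under 0.05, as it did 0.612% of all probe sets. Full separation of the groups, with all MCAO rats below all sham rats, was found in 3.6% of all probe sets. Since the genes were chosen by this contrast, these counts describe the choice. limma, with Benjamini-Hochberg adjustment over all 31042 probe sets, called 0 probe sets. It had 1150 at an unadjusted p under 0.05, a smaller share than the 0.05 that would fall there without any difference.

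Both Phf7 probe sets ordered the 6 rats alike. From low to high, the order was MCAO rats 2, 3 and 1, then sham rats 1, 2 and 3. Over the 6 arrays their values had a Pearson r of 0.997 and a Spearman rho of 1. The r of the deviations from the group means, which leaves out the difference between the groups, was 0.991. Without MCAO rat 2 and sham rat 3, the rats farthest from the median, it was 0.985 for the values of the other 4. No other probe set of the array had a higher r with the values of the first Phf7 probe set.

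The Phf7 probe sets agreed in order but not in size. The difference between the groups was 2.52 times as large in the first as in the second, and the range was 2.47 times as large. A change of 1 log2 unit in the first went with a change of 0.406 in the second. DFW weights the probes of each probe set separately, and its part in the unequal size was not tested.

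Bap1 followed Phf7 closely. With the first Phf7 probe set, its values had an r of 0.970 and a rho of 0.943, with sham rats 1 and 2 the only neighbours in a different order. The r of the deviations from the group means was 0.920, and without MCAO rat 2 and sham rat 3 the r of the values was 0.870 (n = 4). With the second Phf7 probe set, r was 0.951, that of the deviations 0.860 and that without these rats 0.781. All 3 probe sets share the same 6 arrays, and with 3 rats a group no p is given.

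Bap1 was not the only gene that followed Phf7. With the first Phf7 probe set, 27 other probe sets had a higher r than Bap1, so that 0.0902% of all probe sets were as high, and by the deviations 1.41% were. Among the 1081 probe sets with a range over 0.001, Bap1 was in place 4 after the second Phf7 probe set and 2 others. A change of 1 log2 unit in the first Phf7 probe set went with a change of 0.454 in Bap1, and in the second with a change of 1.09.

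**Figure D3:**
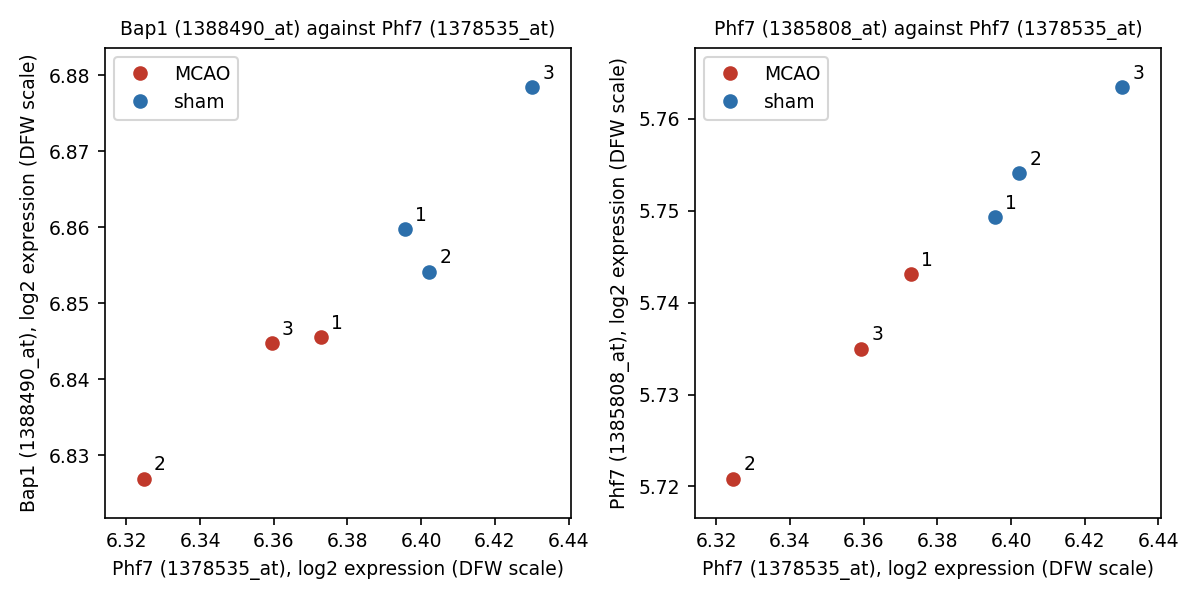
Log2 expression (DFW scale) of Bap1 (left) and of the second Phf7 probe set (right) against the first Phf7 probe set, with 1 point per rat (number beside it) in the MCAO group and the sham group. The points lie near a line in both panels (r = 0.970 and r = 0.997 over 6 arrays), and MCAO rat 2 and sham rat 3 are the ends of both.

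The genes most like the first Phf7 probe set by Pearson r over the 6 arrays, among probe sets with 1 symbol and a range over 0.001, were Rab6a (0.979), Slc7a5 (0.973), Gda (0.966), Tspan5 (0.958) and Ttc27 (0.951). Slc7a5, which encodes a transporter of large neutral amino acids, had log2 values of 7.411, 7.404 and 7.412 in MCAO rats 1, 2 and 3, against 7.414, 7.417 and 7.422 in sham rats 1, 2 and 3. All its MCAO rats lay below all its sham rats, as in 4.11% of all genes, with a log2 difference of -0.00875. Its lowest and highest rats were those of Phf7. Rab6a, a small GTPase of Golgi traffic, differed by -0.00257, and Gda, the guanine deaminase, by -0.00303. Tspan5, a tetraspanin, differed by -0.000590 and overlapped between the groups. These genes were picked by r over all 6 arrays, which includes the group difference of Phf7. Their lower MCAO values and shared end rats therefore follow largely from the choice. By the deviations from the group means, r was 0.929 for Rab6a, 0.938 for Slc7a5, 0.877 for Gda, 0.939 for Tspan5 and 0.923 for Ttc27.

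The genes most like Bap1 were Ttc27 (r = 0.977), Dctn2 (0.977), Capns1 (0.951), Slc7a5 (0.950) and Bag6 (0.943). Ttc27 had a log2 difference of -0.00243, and Dctn2, a subunit of the dynactin complex, one of -0.000570. Capns1, the small calpain subunit, differed by -0.000467 and Bag6, a chaperone of newly made proteins, by -0.000415. Here too the genes were picked by an r that includes the group difference, so their lower MCAO values follow largely from the choice. By the deviations, r with Bap1 was 0.961 for Ttc27, 0.962 for Dctn2, 0.897 for Capns1, 0.869 for Slc7a5 and 0.972 for Bag6. Slc7a5 and Ttc27 were the 2 genes on both lists of 5. All of these genes had a smaller range on the DFW scale than Phf7 and Bap1. The widest was that of Slc7a5, at 0.0180 against 0.0426 for the second Phf7 probe set. With no minimum range, 0 of the 5 most alike remained for either gene.

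The median correlation of head-to-head neighbours was low in these arrays. The promoter table held 1325 such pairs with 2642 of 27457 genes (9.62%), and in 415 pairs both genes were measured. The median r over these pairs was 0.119, and that of the deviations 0.137. Phf7 and Bap1 were the only pair with an r of 0.970 or more, while 13 pairs, theirs included, had an r of deviations as high as theirs. Phf7 and Bap1 were also 1 of only 2 pairs in which both genes had a range over 0.001. In all remaining pairs at least 1 gene had a range of 0.001 or less, so the median r mostly describes such pairs. Both genes were lower in every MCAO rat in 3 pairs, namely this one, Ftsj3 with Psmc5 (r = 0.559) and Iqcb1 with Eaf2 (r = 0.945), whose smaller ranges were 9.12e-06 and 7.00e-08. Since Phf7 and Bap1 were chosen on a shared direction, their place among the pairs is a description.

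The measured neighbours of the pair had a far smaller spread. Of the 10 annotated genes on each side in the RefSeq map, 12 had a probe set, and none was called lower or higher, where 0.943% of all 14217 genes with 1 symbol were called lower and 0.141% higher. Centring of each array on its median added 2.98e-05 to the difference of a probe set, so the sign of smaller differences, here and below, depended on the scaling. Sema3g, a secreted semaphorin and the neighbour on the Phf7 side, had a log2 difference of -1.60e-07. Its range over the 6 arrays was 1.07e-06, and 3.60e-05 at its other probe set. Next to Sema3g, Tnnc1, the troponin C of slow muscle and heart, had a range of 2.31e-06 and a difference of 1.17e-07. Nisch, an imidazoline receptor candidate, had a range of 4.02e-05 and a difference of -1.49e-05.

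On the Bap1 side, the nearest measured gene was Dnah1, an axonemal dynein heavy chain, with a range of 2.34e-05 and a log2 difference of 7.82e-06. Capn7, a calpain, had the widest range of the 12 neighbours at 0.00229 and a difference of -0.000708 (SE 0.000620), and its groups overlapped. Sh3bp5, which binds Bruton's tyrosine kinase, had a range of 0.000566 and a difference of -0.000199. All MCAO rats lay below all sham rats in 1 of the 12 neighbours, Eaf1 (-2.14e-05), which was named after its values were seen, against 4.11% of all genes, and above in none, against 4.43%. The smallest range of the Phf7 and Bap1 probe sets was 18.6 times the widest of the neighbours. Their ranges include the difference by which the genes were chosen, and DFW contracts probe sets unequally, so this ratio is a description only.

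**Figure D4:**
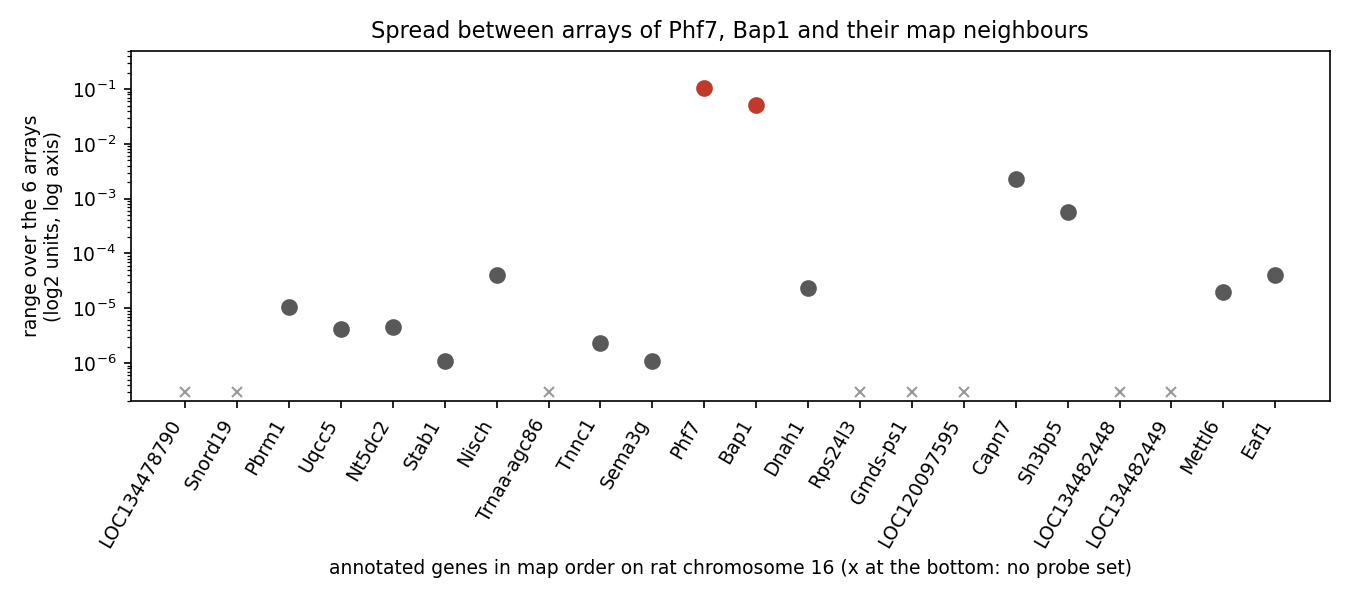
Range over the 6 arrays in log2 units (log axis) of Phf7, Bap1 (red) and the 10 annotated genes on each side, in map order and not to scale in distance, with 1 probe set per gene and a cross where no probe set was measured. Phf7 (0.105) and Bap1 (0.0515) stand above their 12 measured neighbours, which run from 1.07e-06 to 0.00229. The ranges of Phf7 and Bap1 include the difference between the groups by which they were chosen.

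The partners of Bap1 and the opposing Polycomb enzymes were set beside the pair for context. Of 61 listed genes, 54 were measured. Of these, 1 was called lower and 0 were called higher by Rank Products at an FDR under 0.05, against the 0.943% and 0.141% of all genes given above. Full separation was found for 2 genes in the lower direction, Hcfc1 and Cbx6, and for 2 in the higher, Ezh2 and Phf1, close to the 4.11% and 4.43% of all genes. Their ranges had a median of 1.43e-05 against 8.85e-06 over all genes, and the widest was 0.00439. The median log2 difference of the 54 genes was -1.39e-06, with 37 lower on average, against -3.00e-09 and 7132 of 14217 over all genes. This direction was not stable, since 27 of the 54 were lower after quantile normalization and 6 after centring of each array on its median.

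All 10 listed partners of the PR-DUB were measured and 1 was called. Ogt, the enzyme that attaches N-acetylglucosamine to proteins and joins the complex, had log2 values of 7.66606, 7.66762 and 7.66669 in MCAO rats 1, 2 and 3 at its probe set with the highest mean, against 7.66698, 7.66903 and 7.67045 in sham rats 1, 2 and 3. The groups overlapped at sham rat 1. Its log2 difference was -0.00203 (SE 0.00104) at an FDR of 0.0307. Its other probe set, with a difference of -1.12e-05, was not called. The call was lost without MCAO rat 3, without any single sham rat, after quantile normalization, at FDR 0.01 and with limma. MCAO rat 2, the lowest rat for Phf7 and Bap1, was the highest MCAO rat for this Ogt probe set.

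Hcfc1, the host cell factor that Bap1 binds, had log2 values of 6.004212, 6.004224 and 6.004214 in MCAO rats 1, 2 and 3, against 6.004241, 6.004240 and 6.004225 in sham rats 1, 2 and 3. The groups did not overlap, but the difference of -1.91e-05 (SE 5.88e-06) was not called. The histone demethylase Kdm1b had a difference of -3.68e-05. Asxl1, Asxl2 and Asxl3, the activating subunits, were not called and had differences of -5.22e-06, 6.84e-07 and -8.20e-08.

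Of the PRC1 subunits, which ubiquitinate H2A, 21 of 23 were measured and none was called. The largest differences were those of Phc3 (-1.39e-05), Rybp (-1.20e-05) and Kdm2b (-9.95e-06), and the catalytic Rnf2 and Ring1 had -4.64e-06 and 2.46e-06. Of the PRC2 subunits, which methylate histone H3, 10 of 11 were measured and none was called. Rbbp7 had a difference of -0.000336, Aebp2 of -0.000303 and Eed, which binds the methylated histone, of -0.000119. Ezh2, the PRC2 methyltransferase, lay higher in every MCAO rat in the values as deposited, with a difference of 1.13e-05.

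Other histone deubiquitinases were likewise not called in 8 measured of 10 listed. Mysm1, which also acts on ubiquitinated H2A and is needed for blood formation in mice, had a difference of -0.000125 (SE 0.000134), Usp3 of -1.77e-05 and Usp44 of -8.70e-06. The relatives of Bap1 in its enzyme family, Uchl3, Uchl5 and Uchl1, had differences of -2.45e-05, -1.09e-05 and 3.66e-07. G2e3, which shares the PHD and RING type domains of Phf7, had a difference of 1.27e-06, and Phf6 one of -2.44e-07. The smallest range among the Phf7 and Bap1 probe sets was 9.72 times the widest of the 54 genes. Here too the range of the pair includes the difference by which it was chosen.

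**Figure D5:**
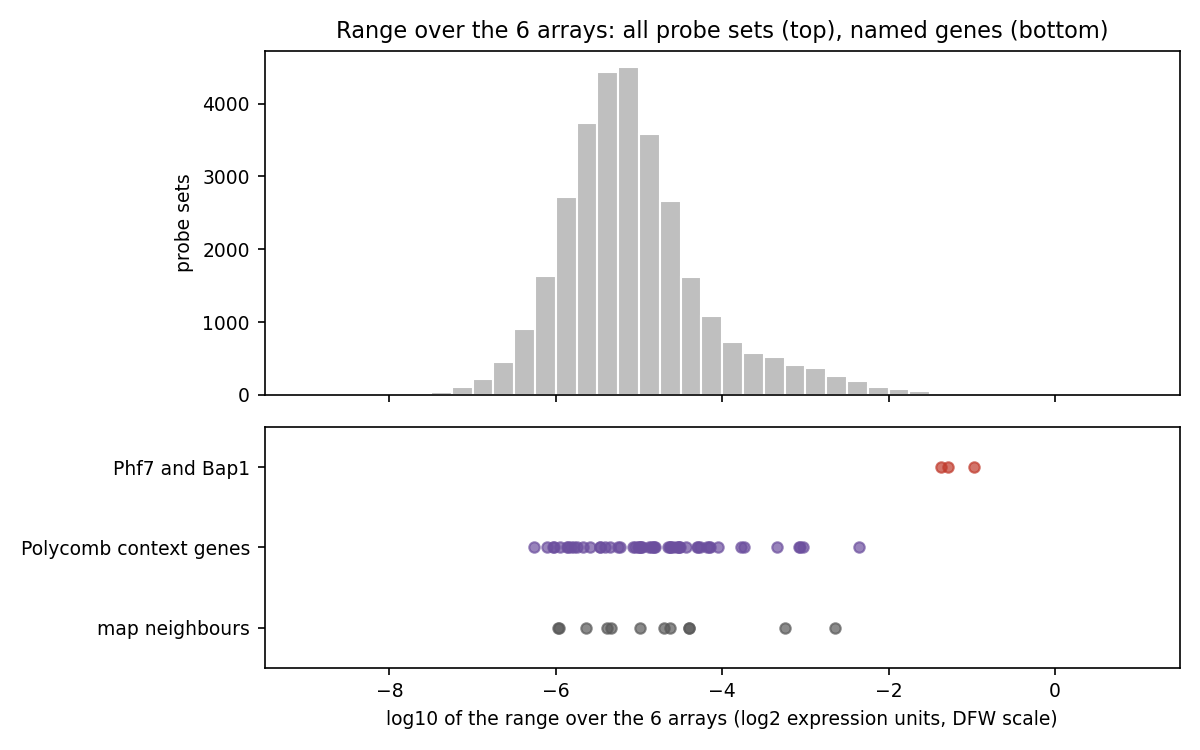
Ranges over the 6 arrays on a log10 axis (log2 expression units, DFW scale) as a histogram of all probe sets (top), with 1 point per probe set for Phf7 and Bap1 and 1 per gene for 54 Polycomb context genes and 12 map neighbours (bottom). The 3 Phf7 and Bap1 points lie to the right of all others in the lower panel, and 89.3% of all probe sets have a range under 1e-04. The difference by which Phf7 and Bap1 were chosen is part of their range.

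Rank Products called 1 marker each of B cells, T cells, NK cells and neutrophils lower, and 1 neutrophil marker higher. With 5 to 8 markers measured in each of these lists, any single call is a larger share than the 0.943% and 0.141% of all genes. The comparison of shares could therefore not have come out otherwise. Of the B cell markers, 5 of 8 were measured and none lay at the foot of the scale. Their summed level, as log2 of the sum, was 8.592925 to 8.594251 in the MCAO group and 8.594271 to 8.595232 in the sham group, so that the groups did not overlap, by a gap narrower than the shift that centring adds. This sum mostly followed Ms4a1, whose range was 0.0109, against at most 0.000117 (Cd79b) in the other measured B cell markers. Such sums, here and below, mostly follow the markers with a high level and a wide range. Ms4a1 (CD20) was the 1 B cell marker called, with a log2 difference of -0.00509, and 3 of the 5 were fully separated, where 0.943% of all genes were called lower and 4.11% were separated in this direction. Its call was lost with limma and without sham rat 2 or sham rat 3. After centring, 2 of the 5 markers were lower on average, against 5 as deposited. The summed T cell markers (8 of 8 measured, 1 called lower) were at 9.400598 to 9.402810 in the MCAO group and 9.402316 to 9.403936 in the sham group, and overlapped. The summed NK cell markers (7 of 7, 1 called lower) were at 8.853076 to 8.856135 in the MCAO group and 8.854762 to 8.856628 in the sham group, and overlapped. The T cell marker called was Cd3g (log2 difference -0.00312, Rank Products FDR 0.0474) and the NK cell marker was Prf1 (-0.00489, FDR 0.0189). Cd3g and Prf1 each overlapped between the groups. Without a single rat, the counts called lower ran from 0 to 3 for T cells and from 0 to 2 for NK cells. Both were 0 without MCAO rat 1, without any single sham rat, with limma and at FDR 0.01. Leaving out MCAO rat 2 gave 0 for NK cells as well.

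The summed neutrophil markers (7 of 8 measured) were at 10.02514 to 10.09746 in the MCAO group and 10.04947 to 10.06341 in the sham group, and overlapped. Csf3r was called higher, where 0.141% of all genes were, with a log2 difference of 0.0131. Rank Products also called S100a9 lower, although its mean was higher in the MCAO group (9.070) than in the sham group (9.067), so no direction is given for it. Both neutrophil calls were lost with limma, at FDR 0.01 and after quantile normalization, and both without MCAO rat 2 or sham rat 2. The S100a9 call was also lost without MCAO rat 1, sham rat 1 or sham rat 3, and the Csf3r call without MCAO rat 3. Monocyte, platelet and red cell markers, with 6 measured each, were not called, and their summed levels overlapped between the groups. The part of cell composition in the Phf7 and Bap1 differences was not tested.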

How the data were processed

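Whole-blood RNA was hybridised to 1 array per rat. The deposited table held log2 values that the authors had obtained with DFW in R, which normalizes the arrays jointly and gives 1 value per probe set. No filter was stated, and the log base was inferred from the range. The raw images were not used here, so signal over background is unknown.

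Rank Products (unpaired, 9 differences, 100 permutations, FDR threshold 0.05) was programmed with numpy 2.4.6 and pandas 2.3.3 (Python 3.11.15) and run on 31042 probe sets, without 57 control probe sets. Standard errors came from limma 3.58.1 in R 4.3.3, and figures from matplotlib 3.10.9. The scripts were tested on simulated data. A gene was represented by its probe set with the highest mean among those with 1 symbol.

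The members and lists were chosen with earlier results of these data known. Named were all Phf7 and Bap1 probe sets, called genes and the 3 largest differences of each context list, the 3 nearest measured neighbours on each side and the 5 genes most like each of Phf7 and Bap1. The catalytic PRC1 subunits, the Asxl genes, fully separated genes and marker genes were added afterwards. Alternatives were limma, FDR 0.01, quantile normalization, median centring, the brighter 15521 probe sets, controls kept, any probe set of a gene, a replicate block and leaving out each rat. The limma p-values measure the spread between these rats only. A Rank Products FDR sets the ranks of a probe set's differences against those of the other probe sets. It does not measure the spread between rats, and a wide range can favour a call, as for S100a9.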

Additional observations from a re-analysis of the deposited data

How the results depend on the processing

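The 3 Phf7 and Bap1 probe sets were called lower under every alternative run except limma, which called 0 of them. Since they were chosen by this contrast in the same arrays, these calls describe the choice and lend it no support. Their groups stayed separated after quantile normalization and after median centring. Centring shifted a difference by only 2.98e-05, against a smallest gap of 0.00619, so it could not have closed a gap. Leaving out 1 rat at a time, the log2 differences of the 3 probe sets ran from -0.0673 to -0.0432 and from -0.0277 to -0.0166 for Phf7 and from -0.0300 to -0.0179 for Bap1. The r of Bap1 with the first Phf7 probe set ran from 0.941 to 0.993. The call of Ogt, the 1 context gene called lower, was lost (0 called) under limma, at FDR 0.01, after quantile normalization and among the brighter 15521 probe sets, and leave-one-out counts ran from 0 to 1, with 0 without MCAO rat 3 or without sham rat 1, 2 or 3.

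The deviations of same-numbered rats had an r of 0.211, 0.0400 and 0.0661. Differently numbered rats were not set beside them, so these values do not settle whether the numbers are pairs. Since the labels state no pairing, the main test was unpaired. With the number as a replicate block, 3 member probe sets and 1 context gene were called lower, and 292 probe sets were called lower and 65 higher, against 190 and 42 without it. Counts over all probe sets were 51 and 27 at FDR 0.01, 101 and 25 after quantile normalization, 84 and 30 in the brighter probe sets, 0 and 0 with limma (1150 at an unadjusted p under 0.05), and 11 to 314 and 12 to 56 without 1 rat. They fell to 42, 11 and 11 lower without sham rat 1, 2 or 3. The causes were not tested.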
